A study of Mus musculus with 4 samples.

Results

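Abca13 encodes a very large member of the ATP-binding cassette transporters of subfamily A, whose members move lipids across membranes. The gene and its flanks were described here on mouse chromosome 11 from 8000001 to 11000000 (mm9), with the gene body taken as about 9.09 to 9.59 Mb. The locus was chosen on 2 measured values, an eigenvector that went from negative in wildtype to positive in knock-out and insulation scores that were not called higher over the same bins. Those values are therefore given as a description, and calls over the gene body are not read as a test. The window held 150 of the 131957 insulation bins of 20 kb in the data, 300 of the 227822 bins of 10 kb and 15 of the 12398 eigenvector bins of 200 kb. Each of the 150 bins of 20 kb was scored in every library.

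The data were Hi-C libraries of mouse bone marrow progenitors, 2 from Stag2 wildtype and 2 from Stag2 knock-out marrow by their labels. In all 4 libraries the progenitors had been enriched by removing marrow cells with lineage markers, and DpnII cut the chromatin in a Hi-C 2.0 protocol. For strain, age, sex, the way the allele was made and any pooling of animals, nothing is stated in the labels. Insulation scores and eigenvectors carry no marker of cell type and no readout of Stag2 itself, so neither label could be checked from them. Whether the libraries of 1 genotype stem from different animals is not stated, and p-values therefore reflect only the spread among these libraries, which may be technical.

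Hi-C counts pairs of DNA ends that lay close together in the nucleus. The leading eigenvector of the contact map sorts the genome into 2 compartments, of which the positive one is by convention rich in active genes and the negative one poor in them. How the deposited eigenvector was oriented is not stated in the labels. Insulation scores measure how many contacts span a position, and dips in the score mark boundaries between domains. Cohesin extrudes chromatin loops, and STAG2 is one of the alternative subunits of the complex. RNA was not among the data analysed here, so nothing follows about the level of Abca13 transcripts.

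In the RefSeq annotation of GRCm38, used only for the order of genes, the protein-coding genes before Abca13 are Gm40814, Hus1, Sun3, Gm11992 and Upp1. Hus1 encodes a subunit of a DNA damage checkpoint clamp, Sun3 a protein of the nuclear envelope and Upp1 uridine phosphorylase. The protein-coding genes after Abca13 are Vwc2, Zpbp, Spata48, 4930512M02Rik and Ikzf1. Ikzf1 encodes Ikaros, a transcription factor of lymphoid development. No position of these neighbours is given, because the annotation and the data use different builds.

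The promoter of Abca13 is shown because the gene starts inside the first of the eigenvector bins that turned positive. The sequence is the RefSeq entry of build GRCm38.p6, plus strand, chr11:9191692-9191991, a build whose positions differ from the mm9 positions used for all values. It holds 250 bases before and 50 bases from the start, and the capitals mark those from the start. The motif GATC, where DpnII cuts, had 0 matches in these 300 bases on either strand, and 48.0% of the 32851 RefSeq promoters of the same length held it.
Abca13 promoter: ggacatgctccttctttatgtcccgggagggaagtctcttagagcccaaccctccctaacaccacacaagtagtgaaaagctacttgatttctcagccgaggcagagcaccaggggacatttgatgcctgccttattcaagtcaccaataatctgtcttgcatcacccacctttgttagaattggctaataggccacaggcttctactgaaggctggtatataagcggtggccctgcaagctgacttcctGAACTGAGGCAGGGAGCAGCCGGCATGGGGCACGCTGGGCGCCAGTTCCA

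The eigenvector turned from negative to positive over 3 adjacent bins that cover the whole gene body. The bin from 9000001 to 9200000, which holds the start of the gene, was at -0.0130 in wildtype and 0.00725 in knock-out. The bin from 9200001 to 9400000 was at -0.0138 in wildtype and 0.00833 in knock-out. The bin from 9400001 to 9600000, which holds the end of the gene, was at -0.0207 in wildtype and 0.00356 in knock-out. The eigenvector came as 1 profile per genotype, so none of these changes has a replicate check.

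**Figure D1:**
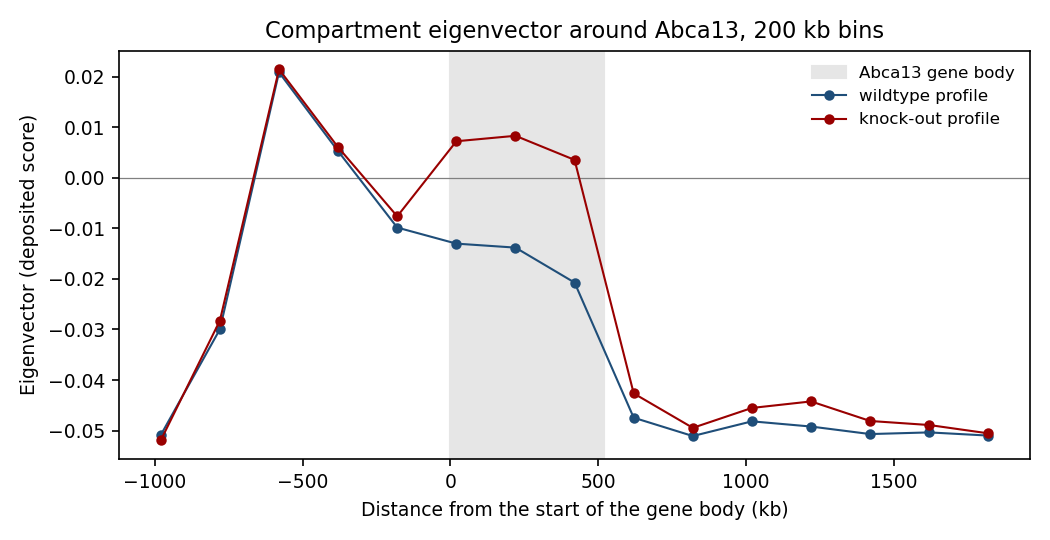
Deposited compartment eigenvector of the wildtype and the knock-out profile (y axis, score without unit) in 200 kb bins, plotted at the middle of each bin against the distance in kb from the start of the gene body, which is shaded. The knock-out profile lies above 0 in the 3 bins over the gene, between 0.00356 and 0.00833, whereas the wildtype profile lies below 0 there, and the profiles run close together on both sides.

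The sign change was limited to the bins that overlap the gene, the first of which also takes in sequence before the gene start. On the upstream side the next bin outside the rule, from 8800001 to 9000000, stayed negative, at -0.00983 in wildtype and -0.00761 in knock-out. On the downstream side the next bin, from 9600001 to 9800000, was at -0.04746 in wildtype and -0.04265 in knock-out. The turned bins thus formed a positive island in the knock-out profile, apart from the positive bins from 8400001 to 8800000 that both genotypes shared. From the bin of the gene's end to the next bin, the eigenvector dropped by 0.0267 in wildtype and dropped by 0.0462 in knock-out. From 8800001 to the bin of the gene's start it changed by -0.00318 in wildtype and by 0.0149 in knock-out.

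Within chromosome 11 the Abca13 bins held ranks 1, 2 and 3 of 594 by eigenvector rise, with changes of 0.0243, 0.0221 and 0.0203. The fourth bin, outside the window, rose by 0.00963, and the SD of the change over the chromosome was 0.00335. Only 5 bins of the chromosome turned positive and 5 turned negative. In the flanks the eigenvector changed little. Its mean change was 0.000856 over 5 upstream bins and 0.00265 over 7 downstream bins, against 0.0222 over the gene. The downstream flank had the lowest mean of the 3 segments, at -0.0497 in wildtype and -0.0471 in knock-out.

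Insulation over the gene body did not follow the eigenvector upward. Over its 26 bins of 20 kb, from 9080001 to 9600000, the mean score was 0.0486 in wildtype replicate 1, 0.0609 in wildtype replicate 2, 0.00305 in knock-out replicate 1 and 0.0289 in knock-out replicate 2. The genotypes did not overlap, with knock-out on the low side. The mean of the wildtype pair was 0.0548 ± 0.00868 and that of the knock-out pair 0.0160 ± 0.0183 (SD, n = 2 each). Knock-out minus wildtype was -0.0388. The difference was negative in 21 of the 26 bins, against 52.7% of all bins of the genome. Over the 3 turned eigenvector bins the difference was -0.0362.

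Limma's test, fitted over all 117252 bins scored in all libraries and adjusted by Benjamini-Hochberg, called 0 of the 26 gene body bins in either direction, with 4 at an unadjusted p below 0.05. Over the genome 11.2% of bins were called lower and 11.2% higher. The genotypes separated in 7 of the 26 bins with knock-out low and in 0 with knock-out high, against 34.8% and 31.0% of bins over the genome. The locus was chosen with these calls in view, so nothing is read from them. Without knock-out replicate 2, 9 of the 26 bins were called lower. No gene body bin was called higher in any of the 10 other fits.

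**Figure D2:**
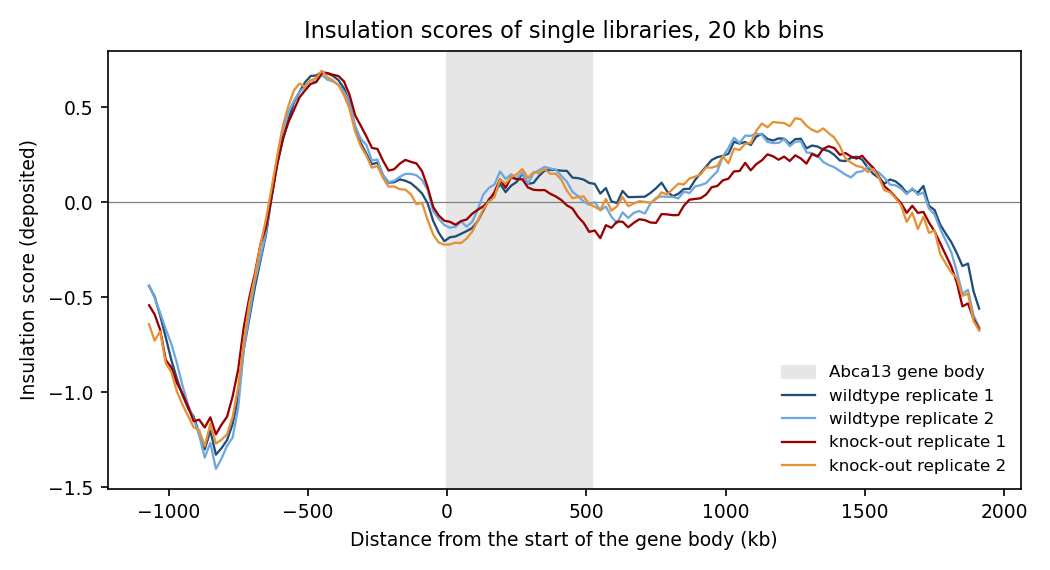
Deposited insulation score (y axis, without unit) of the 4 single libraries in 20 kb bins against the distance in kb from the start of the gene body, which is shaded. All 4 curves share a deep minimum upstream, a shallow minimum at the gene start and a rise inside the gene, and knock-out replicate 1 lies below the others over most of the distal part of the gene and the beginning of the downstream flank.

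The gene body was not uniform, and the differences furthest below 0 lay toward the end of the gene. The gene body was split at its middle after the values had been seen. In the 13 bins from 9080001 to 9340000 wildtype replicates 1 and 2 had mean scores of -0.0423 and 0.0107, and knock-out replicates 1 and 2 had -0.00136 and -0.0458. These groups overlapped, with a difference of -0.00781. In the 13 bins from 9340001 to 9600000 the scores were 0.139 and 0.111 in wildtype and 0.00746 and 0.104 in knock-out. Here the groups did not overlap and the difference was -0.0698, but most of it came from 1 library. Knock-out replicate 1 differed from wildtype replicate 1 by -0.132 and from knock-out replicate 2 by -0.0962. Knock-out replicate 2 differed from wildtype replicate 2 by -0.00748, and these are the libraries whose titles carry the suffix T1, a suffix the labels do not explain.

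A run of 6 bins from 9440001 to 9560000 was the longest inside the gene where the genotypes did not overlap. Its mean score was 0.155 and 0.115 in wildtype and -0.00591 and 0.0886 in knock-out. The gene body bin with the largest difference, -0.127, was the last, from 9580001 to 9600000. Its scores were 0.102 and -0.0119 in wildtype and -0.155 and -0.00816 in knock-out, so that knock-out replicate 2 was level with wildtype replicate 2. The lower scores did not stop at the gene's end, and the next bin, from 9600001 to 9620000, differed by -0.135. The bin where the eigenvector rose most, from 9400001 to 9600000, was also the 1 of the 3 where the 200 kb mean score differed most, by -0.0891. The other turned bins differed by -0.0102 and -0.00912, with overlapping libraries in both.

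**Figure D3:**
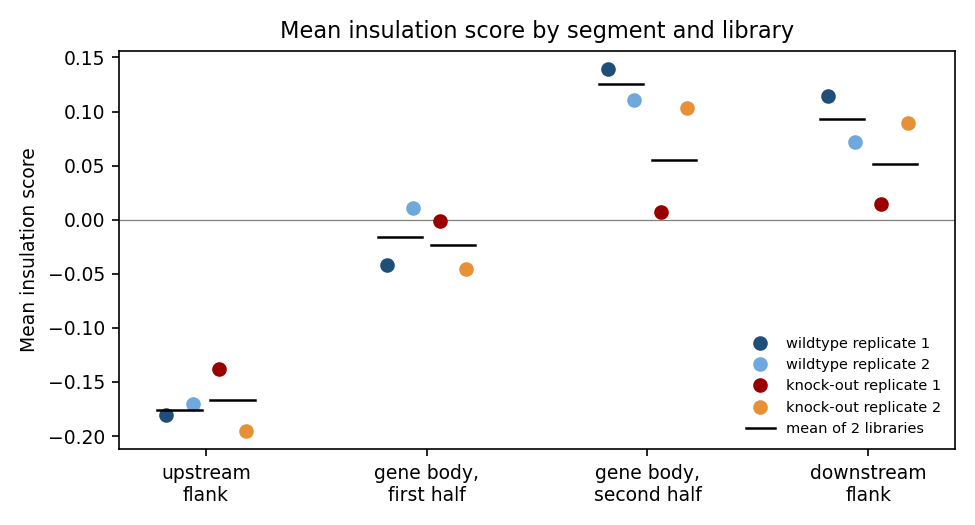
Mean insulation score per library (points) in the upstream flank, in the proximal and the distal part of the gene body and in the downstream flank, with a black line at the mean of the 2 libraries of each genotype. In the distal part of the gene body knock-out replicate 1, at 0.00746, stands apart from the other 3 libraries, which lie between 0.104 and 0.139.

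All libraries dipped at the gene start and rose inside the gene. The lowest score within 200 kb of the gene start lay between 9060001 and 9120000 in each of them, at -0.205 and -0.133 in wildtype and at -0.118 and -0.223 in knock-out. Inside the gene the highest score lay in the bin starting at 9460001 and 9420001 in the wildtype libraries and at 9300001 and 9340001 in the knock-out libraries. Its height was 0.171 and 0.187 in wildtype and 0.132 and 0.175 in knock-out. In knock-out replicate 2 the bin starting at 9420001, where wildtype replicate 2 peaked, was level with its highest bin at 0.175, so its peak position is a near tie.

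A boundary was a bin with the lowest mean score among its 10 neighbours on the left and 10 on the right, and its depth, of 0.2 or more, was its distance below the mean of the highest score to the left and to the right. The window held 2 of the 1905 boundaries of the genome. The one from 9060001 to 9080000 adjoins the gene body on its upstream side. Its depth was 0.310 and 0.276 in wildtype and 0.269 and 0.317 in knock-out, so the groups overlapped, with means of 0.293 ± 0.0247 and 0.293 ± 0.0337 (SD, n = 2). The difference of 5.25e-05 had a standard error of 0.0347, while the eigenvector of the bin that holds this boundary changed sign.

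The other boundary, from 8240001 to 8260000, lies in the last negative eigenvector bin before the positive bins that both genotypes shared. Its depth was 1.04 and 1.14 in wildtype and 0.900 and 0.968 in knock-out. Both knock-out libraries were shallower, with a difference of -0.157 ± 0.0749 (SE). Limma on the depths of all boundaries did not call it, with an adjusted p of 0.283 and an unadjusted p of 0.0490, where 1.73% of boundaries were called. Another, shallow minimum from 9660001 to 9680000, beyond the gene's end, entered only with a minimum depth of 0.1. Its depth was 0.132 and 0.177 in wildtype and 0.118 and 0.145 in knock-out, with an adjusted p of 0.791 in limma.

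In the upstream flank, from 8000001 to 9080000, the mean scores of the genotypes overlapped. They were -0.181 and -0.170 in wildtype and -0.138 and -0.195 in knock-out, a difference of 0.00879 with p = 1 in the exact permutation test over libraries (two-sided), which cannot go below 0.333 with 2 against 2. Without knock-out replicate 1 the difference was -0.0199. The mean hid differences of opposite sign, below 0 at the start of the window and above 0 across the deep boundary. The runs of bins given next were picked as stretches without overlap between the genotypes, so their separation is not a result. In 6 bins from 8000001 to 8120000 knock-out was low, at -0.742 and -0.798 against -0.667 and -0.630 in wildtype. In 13 bins from 8180001 to 8440000 both knock-out libraries were the higher ones, at -0.828 and -0.881 against -0.930 and -0.955. Of the 54 upstream bins, 13 separated the genotypes with knock-out high and 8 with knock-out low. Both counts are below the genome shares of 31.0% and 34.8%. Limma called 2 of the 54 upstream bins lower and 0 higher, against 11.2% of bins in each direction over the genome. The 2 bins called lower started at 8000001 (difference -0.152, adjusted p 0.0455) and at 8060001 (-0.149, adjusted p 0.0479). The calls depended on the scaling. A common SD per library gave 0 lower and 4 higher, and quantile normalization gave 0 of either. These are counts per setting, given without the genome share of that setting, and bins were not followed from one setting to another.

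The downstream flank, from 9600001 to 11000000, stayed negative in the eigenvector in both genotypes. Its mean scores also overlapped, at 0.115 and 0.0721 in wildtype and 0.0144 and 0.0890 in knock-out. The difference of -0.0416 had p = 0.667 in the exact permutation test. The gene body differed by -0.0388, so a lower mean score in knock-out was not particular to the gene. In the downstream flank the difference was -0.100 in the pair of libraries without the T1 suffix and 0.0169 in the pair with it. Of the 70 bins, 52 had a negative difference, 25 separated the genotypes with knock-out low and 6 with knock-out high, where the genome shares were 34.8% and 31.0%. Runs of bins were again picked as stretches without overlap between the genotypes. In 5 bins from 10420001 to 10520000 the knock-out libraries were higher, at 0.275 and 0.324 against 0.247 and 0.181. In 18 bins from 10640001 to 11000000 they were lower, at -0.216 and -0.233 against -0.102 and -0.148.

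Limma called 3 of the 70 downstream bins lower and 0 higher, against 11.2% of bins in each direction over the genome, and those 3 lay inside that last run. The bin from 10780001 to 10800000 had scores of 0.0864 and 0.0517 in wildtype and -0.0502 and -0.0751 in knock-out (adjusted p 0.0298). The called bins starting at 10720001 and 10760001 differed by -0.125 and -0.143. The 5 calls of the window depended on single libraries and were lost without wildtype replicate 1 and also without wildtype replicate 2. Without single knock-out libraries the calls changed too, and the genome share of those fits is not given.

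**Figure D4:**
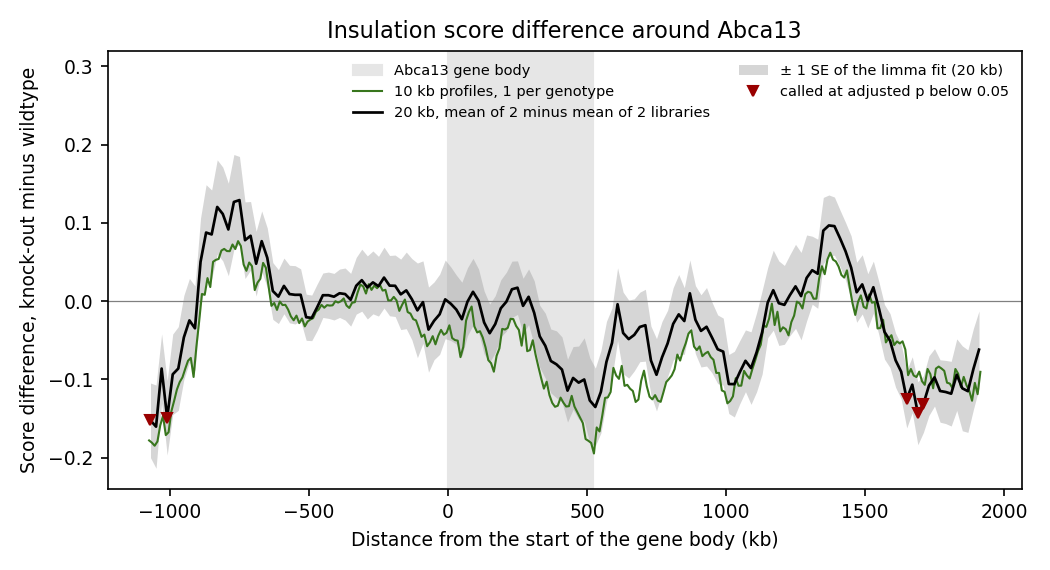
Insulation score difference, knock-out minus wildtype (y axis), against the distance in kb from the start of the gene body, which is shaded. The black line is the mean difference of the 20 kb libraries with a band of 1 standard error of the limma fit, the green line the difference of the 10 kb profiles, and triangles mark the 5 called bins, which all lie in the flanks.

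The 10 kb profiles, 1 per genotype and without replicates, were lower in knock-out over the whole gene. All 52 of their gene body bins were lower, with differences from -0.181 to -0.00696 and a mean of -0.0803, where 52.4% of 10 kb bins of the genome were lower. In the flanks 121 of 140 downstream bins and 66 of 108 upstream bins were lower too, so the fall was not limited to the gene. The lowest difference of the window, -0.195, lay just beyond the gene, from 9600001 to 9610000. The mean of the 10 kb profiles over the gene was -0.0821 in wildtype and -0.162 in knock-out. They differed by -0.0650 over the downstream flank, and by -0.0183 over the upstream flank, where the 20 kb libraries gave a difference above 0. The 10 kb profiles may rest on the same libraries and are no independent evidence.

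In 200 kb bins, the eigenvector change and the mean score difference had the same sign in 5 of 5 upstream bins, 0 of 3 gene bins and 2 of 7 downstream bins. These signs rest on small differences. The eigenvector changes, from 1 profile per genotype, ran from -0.00104 to 0.00222 upstream and from 0.00044 to 0.00497 downstream. Their SD over the chromosome was 0.00335, so the upstream signs are those of changes smaller than it. The libraries of the genotypes overlapped in 3 of the 5 upstream bins and in 2 of the 3 gene bins. Leaving out 1 library at a time gave 3 to 5 matches upstream, 0 to 2 over the gene and 1 to 3 downstream. Without wildtype replicate 2, 2 of the 3 gene bins matched, and without knock-out replicate 1, 3 of the 5 upstream bins and 1 of the 3 gene bins did. Without knock-out replicate 2, 1 of the 3 gene bins matched. Over the whole window that made 7 of 15 bins (46.7%), and over the genome 7663 of 11712 (65.4%). Limma on the 200 kb means called 0 of the 15 bins, with 3 at an unadjusted p below 0.05, where 16.1% of all such bins were called lower and 14.4% higher. Directions matched both in the bin that holds the deep boundary and in the bin before it. From 8000001 to 8200000 the eigenvector changed by -0.00104 and the score by -0.0784, and from 8200001 to 8400000 they changed by 0.00173 and 0.0961. From 10000001 to 10200000 the eigenvector changed by 0.00265 while the score differed by -0.0736, with knock-out at 0.135 and 0.256 and wildtype at 0.274 and 0.264.

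Most other bins that turned positive had higher scores in knock-out. Of the 91 bins of the genome that turned positive, 83 had a score, 3 at Abca13 and 80 elsewhere, and 66 of the 80 (82.5%) were higher in knock-out. The median difference of the 80 was 0.0710, against -0.00719 over all 200 kb bins. Limma called 33 of the 80 higher and 0 lower, against 14.4% and 16.1% of all 200 kb bins. Scaled by the SD of the wildtype eigenvector on each chromosome, 8 scored bins outside the locus, turned or not, rose at least as much as the smallest of the Abca13 changes, 0.494 SD. In 8 of these 8 the mean score was higher in knock-out, by 0.00877 to 0.198, and 5 were called higher. The Abca13 bins stood with rises of 0.494, 0.539 and 0.592 SD and score differences of -0.0102, -0.00912 and -0.0891. The differences of -0.0102 and -0.00912 were smaller than their standard errors, 0.0428 and 0.0324. The contrast with the other bins was not tested, since the locus was chosen for it.

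**Figure D5:**
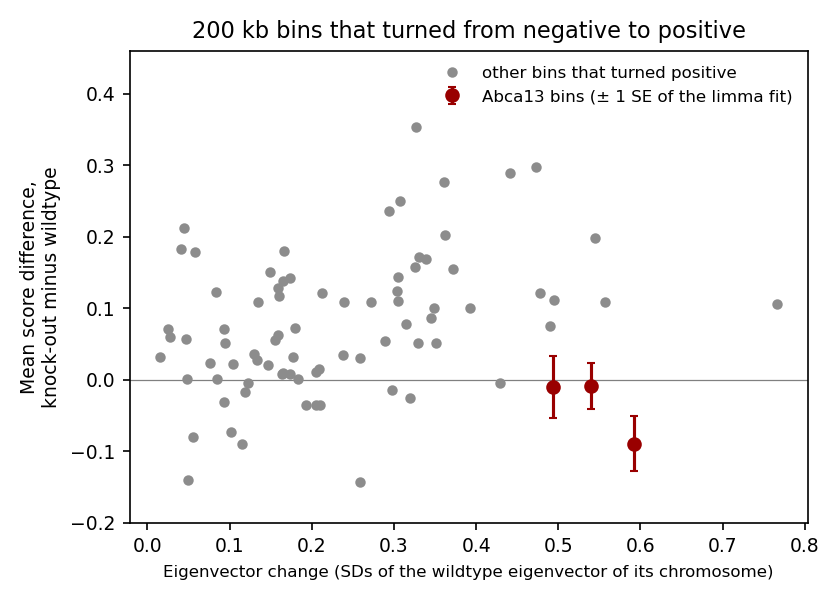
Mean insulation score difference, knock-out minus wildtype (y axis), against the eigenvector change in SDs of the wildtype eigenvector of the same chromosome (x axis) for the 83 scored 200 kb bins that turned from negative to positive. The 3 Abca13 bins (red, with 1 standard error of the limma fit) lie below 0, whereas the other bins that rose by at least 0.494 SD lie above it.

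Joined where adjacent, the 91 bins made 80 loci, and Abca13 held rank 3 by mean scaled change, at 0.542 SD. The others among the 5 largest all had higher scores in knock-out. The locus of chromosome 9 from 49200001 to 49600000 rose by 0.662 SD, and its score went from -0.146 and -0.143 in wildtype to -0.00741 and -0.0670 in knock-out. On chromosome 2 from 61000001 to 61200000 the score differed by 0.198 and 10 of 10 bins of 20 kb were called higher. On chromosome 13 from 109800001 to 110000000 it differed by 0.111, with 5 of 10 called higher. On chromosome 7 from 72400001 to 72600000 it differed by 0.0757, with 1 of 10 called higher. Over the genome 11.2% of 20 kb bins were called higher, so 1 of 10 is near that share. The 200 kb mean of this chromosome 7 bin was not called by limma (adjusted p 0.141).

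The loci most like Abca13 were taken as those with the largest scaled rise among loci whose score was lower in knock-out. On chromosome 14 from 24200001 to 24400000 the eigenvector went from -0.0136 to 0.00447 while the score differed by -0.00433. Its scores were -0.220 and -0.238 in wildtype and -0.222 and -0.245 in knock-out. On chromosome 2 from 46000001 to 46400000 the score differed by -0.0198, from 0.123 and 0.0504 in wildtype to 0.117 and 0.0172 in knock-out. On chromosome X from 125800001 to 126000000 it differed by -0.143. There wildtype was at -0.601 and -0.684, and the knock-out libraries, at -0.654 and -0.916, lay far apart. The libraries of the genotypes overlapped at each of these loci, so their likeness to Abca13 rests on the sign of a mean difference. Of the 73 loci with a score, 15 were lower in knock-out, and 3 of all 80 loci spanned 3 or more eigenvector bins, among them Abca13.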

How the data were processed

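Hi-C data of 4 libraries, 2 per genotype, were used as deposited, and coordinates are mm9 per the submitters' processing notes. The authors deposited insulation scores of single libraries (20 kb) and 1 profile per genotype (10 kb), and a compartment eigenvector per genotype (200 kb), per the file headers. Each was treated as a score. For window size, log base, aligner, filters and pooling: not given in the sources used here. Depth was unknown, and the libraries held 117486 to 120151 scored bins. The members and lists were chosen with earlier results of these data known. Groups came from the genotype label, and replicate numbers follow accession order and pair no libraries. Scores were compared with limma 3.58.1 in R 4.3.3 (lmFit, eBayes with a trend) over all bins scored in all libraries, with no covariate beside genotype, adjusted by Benjamini-Hochberg, threshold 0.05. The same test was run on 200 kb means of at least 5 scored bins and on boundary depths. On simulated data only the 20 kb test was run, with noise drawn independently per bin, so correlated bins were not covered. Named genes were Abca13 and 5 protein-coding neighbours on each side. Named loci were the 5 with the largest scaled rise among those that turned positive, and the 3 largest with a lower score. Alternatives left out each library, rescaled or quantile-normalized the scores, subtracted a running mean over 51 bins, used the T1 suffix as a block, or changed bins, trend or boundary rule. Neighbouring scores vary together, so bins are not independent.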

Additional observations from a re-analysis of the deposited data

How the results depend on the processing

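Over the gene body the score difference stayed negative in every alternative run. That sign is no support, because the locus was chosen for scores that were not called higher. The size of the difference moved to -0.00558 after a running mean was subtracted and to -0.0803 in the 10 kb profiles. It was -0.00781 in the proximal part of the gene and -0.0698 in the distal part, a split added after seeing the data. Leaving out 1 library each gave -0.0517 to -0.0259. In 200 kb bins the sign was less stable, and without wildtype replicate 2 it was positive in 2 of the 3 gene bins. The flanks depended on the pair of libraries. The pairs with and without the T1 suffix gave -0.0249 and 0.0425 upstream, and 0.0169 and -0.100 downstream. Leave-one-out values ran from -0.0199 to 0.0375 upstream and from -0.0789 to -0.00435 downstream. The 5 bins called lower in the window became 3 after quantile normalization and 0 after the running mean was subtracted, and 0 to 24 without single libraries. Bins called higher numbered 0, but 4 with a common SD per library and 0 to 6 without single libraries. With the T1 suffix as a replicate block, 5 bins were called lower and 0 higher. No paired analysis by replicate number was possible because the numbers follow accession order. On 200 kb means, 1 bin was called higher with a common SD, and the counts also changed without either knock-out library. Directions of eigenvector and score matched in 4 of 15 bins with a common SD. The depth difference of the boundary at the gene start, near 0, changed sign to -0.0154 with a common SD, to -0.0419 after quantile normalization and to -0.000832 after the running mean was subtracted, and ran from -0.0237 to 0.0239 without single libraries. In the upstream flank, 2 bins were called lower and 0 higher with the scores as deposited. With a common SD 0 were called lower and 4 higher, and bins were not followed between these settings. The upstream boundary stayed shallower in knock-out in all alternatives run, with differences from -0.209 to -0.0938. The cause of these shifts was not tested. Scaling the eigenvector by its SD left the changes by segment the same. With minima and flanks taken over 5 bins a side, the boundary at the gene start was not among the boundaries and gave no value. Sequencing depth was unknown, so its limit could not be given.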
